A study of Homo sapiens with 2 samples.

Results

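The checkpoint that cells raise against damaged or stalled DNA was followed here through the mRNA of 10 genes that code for its kinases and their mediators. The genes were taken by name: every row of the deposited expression table whose Entrez gene ID stands for ATM, ATR, PRKDC, CHEK1, CHEK2, WEE1, ATRIP, TOPBP1, CLSPN or TP53BP1. All 10 were found among the 23033 genes with a value, and all 10 were among the 13554 genes kept for the comparison because they reached 1 FPKM in at least one of the libraries. FPKM scales the fragments of a gene to the length of its transcript and the depth of the library, so levels of different genes in it can be set side by side.

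The series holds 2 libraries of total RNA from T-47D cells, a luminal breast cancer line, sequenced on the BGISEQ-500 platform. One library came from control cells, labelled WT, and the other from FZR1 ko cells, which were made with CRISPR/Cas9 and grown from a single cell, so the knockout stands for 1 clone. The product of FZR1 activates APC/C, a ubiquitin ligase that clears its substrates in late mitosis and G1. Both cultures had received cisplatin, a drug that crosslinks DNA, at 2 µg/ml, and the time of treatment is not given in the sources used here. Cells without cisplatin were not analysed here. Each condition has 1 library, so there is no replicate error, and neither a test nor a p-value could be made. Each difference describes these libraries and has no replicate check. In bulk RNA, fewer cells that express a gene and less of its RNA per cell cannot be told apart.

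In this pathway, sensors of broken or unwound DNA call in large kinases of the PIKK family: ATM, together with the MRE11-RAD50-NBN complex, at double-strand breaks, DNA-PKcs (the product of PRKDC), together with Ku, at broken ends, and ATR, together with its partner ATRIP, at stretches of single-stranded DNA. ATM passes the signal mainly to CHK2 (CHEK2) and ATR mainly to CHK1 (CHEK1), and mediators such as TOPBP1, claspin (CLSPN) and 53BP1 (TP53BP1) activate the kinases or hold their substrates close. The checkpoint kinases act on the CDC25 phosphatases, while WEE1 places an inhibitory phosphate on CDK1. Cisplatin adducts stall replication forks and are a known trigger of the ATR branch. The activity of these kinases is set on the protein, and mRNA levels do not show it.

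Facts of the whole series that touch these genes are few. FZR1 itself (Entrez gene 51343) stood at 12.3 FPKM in control cells against 10.1 FPKM in the knockout. As an edit of a few bases can leave the mRNA in place, this level is no check of the knockout. The FPKM of all genes summed to 502589 in control and 500488 in FZR1 ko. Among 243 short RNA genes the most frequent ratio of FPKM, FZR1 ko over control, was 0.978, met by 46 of them within 0.5%. If these 46 had equal read counts in both libraries, the depth of FZR1 ko was 1.02 times that of control. The median log2 ratio of all genes kept was -0.0048. Of 14 markers of luminal breast cells, 7 were under 1 FPKM in both libraries, among them ESR1, PGR, GATA3 and CDH1, whereas KRT8 and KRT18 were high. Of 10 mesenchymal and basal markers 3 were under 1 FPKM in both, and VIM stood at 315 FPKM in control cells against 295 FPKM in the knockout, so the markers did not all go with the luminal label. Markers of both kinds also differed between the libraries. Of the 7 luminal markers kept, 4 were higher and 3 lower in FZR1 ko, with a median log2 ratio of 0.27 and a summed level of 1501 and 1844 FPKM in control and FZR1 ko. EPCAM, an epithelial adhesion molecule, had 3.9 and 11.5 FPKM (1.35). Of the 7 mesenchymal and basal markers kept, 4 were also higher and 3 lower in FZR1 ko, with a median of 0.51. Their summed level was 427 and 449 FPKM in control and FZR1 ko. At a log2 ratio of 0.5, 4 of these 7 were higher and none lower. Of the 7 luminal markers 1 was higher by as much and none lower, against 21.6% of all genes kept higher and 21.0% lower. CDH2, which encodes N-cadherin, had 2.97 and 15.3 FPKM (log2 ratio 2.04), and AXL, a receptor tyrosine kinase, had 16.02 and 37.8 FPKM (1.19). The ratios of CDH2, EPCAM and AXL, which were named after their values were seen, were larger than that of any of the 10 checkpoint genes. The part of this difference in the checkpoint values was not tested.

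The mRNA of the apical kinases was higher in FZR1 ko, above all that of PRKDC, while the mRNA of WEE1, CLSPN, ATRIP and CHEK1 was lower. Of the 10 genes 6 were higher and 4 lower in FZR1 ko, with a median log2 ratio of 0.25. With the median of genes of similar transcript length and GC content subtracted, 5 were higher and 5 lower, with a median of 0.047. Log2 ratios are the difference in log2(FPKM + 1), knockout minus control, a scale that understates the change of low genes. Only PRKDC passed a log2 ratio of 1, which is 1 of 10, against 13.5% of all genes kept passing it in either direction, 6.78% higher and 6.72% lower. At a log2 ratio of 0.5, about 1.41-fold, PRKDC, ATR and CHEK2 were higher and WEE1 and CLSPN lower, which is 5 of 10, against 42.6% of all genes kept, 21.6% higher and 21.0% lower. With a pseudocount of 5 FPKM only PRKDC and WEE1 passed 0.5, with ATR at 0.36, CHEK2 at 0.46 and CLSPN at -0.46, and with genes of similar length and GC content subtracted ATR did not, at 0.46. A log2 ratio above 0 was found in 49.6% of all genes kept. The counts of these 10 genes therefore lay near those of genes in general, and what follows describes which of them lay on which side.

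**Figure D1:**
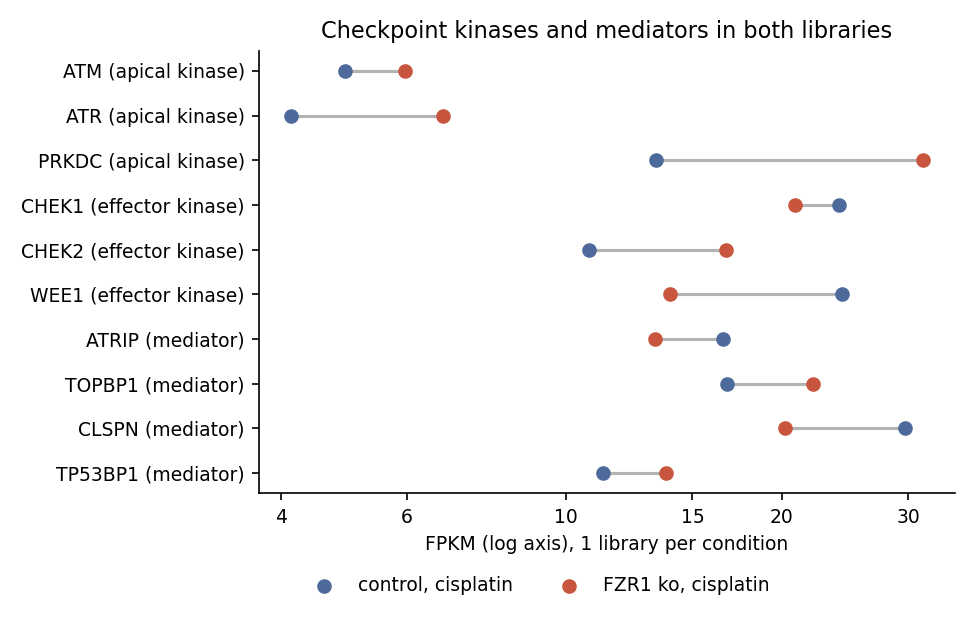
Level of each checkpoint gene in FPKM (log axis) in the control library (blue) and the FZR1 ko library (red), both from cells with cisplatin, 1 library each, with a grey line joining the pair. PRKDC shows the widest gap, between 13.3 FPKM in blue and 31.5 FPKM in red, and WEE1, CLSPN, ATRIP and CHEK1 are the genes whose red point lies to the left.

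Among the apical kinases, PRKDC (Entrez gene 5591, hg38 chromosome 8, 47773111 to 47960178, minus strand) encodes DNA-PKcs, the kinase of non-homologous end joining. It had 13.3 FPKM in control cells against 31.5 FPKM in the knockout, a log2 ratio of 1.18. Its FPKM was 2.36-fold higher in FZR1 ko, and its ratio lay at the percentile of 95.7 among all genes kept. The log2 ratio was 0.99 with a pseudocount of 5 FPKM and 0.91 with genes of similar length and GC content subtracted, both below 1. ATR (Entrez gene 545, chromosome 3, 142449007 to 142578733, minus strand), the kinase of stalled forks, had 4.13 FPKM in control cells against 6.74 FPKM in the knockout (log2 ratio 0.59). ATM (Entrez gene 472, chromosome 11, 108223044 to 108369102, plus strand), the kinase of double-strand breaks, had 4.92 FPKM in control cells against 5.96 FPKM in the knockout (log2 ratio 0.23). With genes of similar length and GC content subtracted ATM was at 0.098 and ATR at 0.46. All 3 were thus higher in FZR1 ko, and their summed level was 22.4 FPKM in control cells against 44.2 FPKM in the knockout. Most of that difference was PRKDC, and ATM and ATR were the lowest of the 10 genes in both libraries. ATR was below ATM in control and above it in FZR1 ko, so the ratio of ATM to ATR went from 1.19 to 0.884.

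The effector kinases did not go one way. CHEK2 (Entrez gene 11200, chromosome 22, 28687743 to 28742422, minus strand) encodes CHK2, the main effector of ATM. It had 10.8 FPKM in control cells against 16.7 FPKM in the knockout (log2 ratio 0.59). CHEK1 (Entrez gene 1111, chromosome 11, 125625163 to 125676255, plus strand) encodes CHK1, the main effector of ATR. It had 24.1 FPKM in control cells against 20.8 FPKM in the knockout (log2 ratio -0.20). Within a library the ratio of CHEK2 to CHEK1, which does not depend on the scaling of the library, was 0.448 in control and 0.803 in FZR1 ko. CHEK1 stayed above CHEK2 in both, by a smaller margin in FZR1 ko. WEE1 (Entrez gene 7465, chromosome 11, 9573670 to 9593457, plus strand), the kinase that restrains CDK1 before mitosis, had 24.3 FPKM in control cells against 14.0 FPKM in the knockout (log2 ratio -0.76). It was the lowest ratio of the 10 genes, at the percentile of 11.6 among all genes kept, and its FPKM was 1.74-fold higher in control. With genes of similar length and GC content subtracted CLSPN was the lowest, at -0.81, with WEE1 at -0.74.

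The mediators divided evenly, although TP53BP1 was just below 0 with genes of similar length and GC content subtracted (-0.0041). CLSPN (Entrez gene 63967, chromosome 1, 35720218 to 35769978, minus strand) encodes claspin, which brings CHK1 to ATR at the fork. It had the highest level of the 10 genes in control, 29.7 FPKM, and had 20.2 FPKM in FZR1 ko (log2 ratio -0.54). ATRIP (Entrez gene 84126, chromosome 3, 48446710 to 48467645, plus strand), the partner through which ATR reaches coated single-stranded DNA, had 16.5 FPKM in control cells against 13.3 FPKM in the knockout (log2 ratio -0.30). As ATR was higher and ATRIP lower, the ratio of ATR to ATRIP was 0.25 in control and 0.507 in FZR1 ko, a 2.03-fold difference between the libraries. This ratio is the more uncertain because annotated exons of ATRIP share bases with TREX1, as described below. TOPBP1 (Entrez gene 11073, chromosome 3, 133598175 to 133662380, minus strand), the activator of ATR, had 16.8 FPKM in control cells against 22.1 FPKM in the knockout (log2 ratio 0.38). TP53BP1 (Entrez gene 7158, chromosome 15, 43403061 to 43510728, minus strand), whose product 53BP1 binds chromatin beside breaks and limits the resection of their ends, had 11.2 FPKM in control cells against 13.8 FPKM in the knockout (log2 ratio 0.27). In the ATR branch the kinase itself and its activator TOPBP1 were therefore higher in FZR1 ko, and ATRIP, CLSPN and CHEK1 lower.

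Promoter sequence was compared because several genes of the checkpoint are known to be transcribed with the cell cycle. The RefSeq table of GRCh38.p14, the build of hg38, gave windows of 300 bases around a start, most of it upstream, for 8 of the 10 genes, all but PRKDC and WEE1. Each window was searched on both strands for E2F words (TTTCCCGC, TTTCGCGC, TTTGCCGC or TTTGGCGC), for CCAAT and for the cell cycle homology region as TTTGAA. No word is contained in another. The motifs were chosen after the values were seen. An E2F word stood in the window of CLSPN, which was lower in FZR1 ko (log2 ratio -0.54), and of TOPBP1, which was higher (0.38), and in 3.31% of all 35116 windows. Both windows are shown for that contrast, in the direction of the gene, with the word in capitals, in both on the opposite strand and so read as its reverse complement. They lie on the minus strand at chr1:35769929-35770228 for CLSPN and chr3:133661892-133662191 for TOPBP1.
CLSPN: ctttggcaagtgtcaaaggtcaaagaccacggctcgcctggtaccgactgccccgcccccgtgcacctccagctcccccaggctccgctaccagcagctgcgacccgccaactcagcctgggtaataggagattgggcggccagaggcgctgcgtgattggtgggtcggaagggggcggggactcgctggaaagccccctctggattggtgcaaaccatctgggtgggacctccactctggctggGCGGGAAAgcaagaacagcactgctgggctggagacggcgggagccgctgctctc
TOPBP1: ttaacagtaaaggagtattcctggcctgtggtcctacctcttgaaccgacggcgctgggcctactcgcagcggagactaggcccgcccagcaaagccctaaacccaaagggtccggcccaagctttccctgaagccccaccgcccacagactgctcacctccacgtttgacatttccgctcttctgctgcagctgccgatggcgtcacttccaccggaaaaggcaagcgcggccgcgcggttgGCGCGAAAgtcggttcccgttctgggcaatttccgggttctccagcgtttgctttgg
The word covers positions -5 to 2 in CLSPN and -7 to 0 in TOPBP1, counted from 0 at the first transcribed base, so it lies across or at the start in both.

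CCAAT, on either strand, stood in a window of ATM, ATRIP, CHEK1, CHEK2, CLSPN and TP53BP1 and in 34.6% of all windows, with 3 copies in a single window each of CHEK1, CHEK2 and CLSPN. TTTGAA stood in a window of ATM alone among these genes and in 15.2% of all windows. None of the 3 motifs stood in the ATR window. A word in a window describes the sequence and does not show that a factor bound there.

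By level, the order in control was CLSPN, WEE1, CHEK1, TOPBP1, ATRIP, PRKDC, TP53BP1, CHEK2, ATM and ATR, from 29.7 to 4.13 FPKM. In FZR1 ko it was PRKDC, TOPBP1, CHEK1, CLSPN, CHEK2, WEE1, TP53BP1, ATRIP, ATR and ATM, from 31.5 to 5.96 FPKM. PRKDC moved from the sixth place to the first. With 1 library per condition no spread is known, so it cannot be said which neighbours in either order differ. The summed level of the 10 genes was 156 FPKM in control cells against 165 FPKM in the knockout.

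Transcript length ran along with the log2 ratio over the whole table, and 5 of these genes are very long. Lengths are those of the canonical GENCODE 44 transcript, found for 97.0% of the genes kept. The median log2 ratio was -0.11 over 1678 genes of up to 1000 bases, 0.034 over 3367 genes of 3001 to 5000 bases, 0.18 over 2061 genes of 5001 to 8000 bases and 0.31 over the 900 genes above 8000 bases. Of the last group 12.1% were higher in FZR1 ko by a log2 ratio of at least 1 and 3.0% lower. ATM, ATR, PRKDC, CLSPN and TP53BP1 belong to it, with transcripts of 12915, 8158, 13459, 8512 and 10369 bases. Within it PRKDC lay at the percentile of 93.4 and ATR at 69.3, whereas ATM and TP53BP1 lay close to the middle, at 45.8 and 47.9. CLSPN lay at 9.6, so it was low among long transcripts although such transcripts were mostly higher in FZR1 ko. With the median of genes of similar length and GC content subtracted, PRKDC was at 0.91, CHEK2 at 0.64, ATR at 0.46, TOPBP1 at 0.30, ATM at 0.098 and TP53BP1 at -0.0041. On the same scale CHEK1 was at -0.24, ATRIP at -0.43, WEE1 at -0.74 and CLSPN at -0.81. On this scale none passed 1. The source of the trend was not tested.

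Some of the 10 genes share exon bases with a neighbour, and reads there may have been split between them by the authors' counting. The annotated exons of ATRIP share 1448 of 5201 bases with TREX1 on the same strand, a DNA exonuclease gene that had 50.3 FPKM in control cells against 29.7 FPKM in the knockout. Those of TP53BP1 share 3110 of 11537 bases with TUBGCP4 on the opposite strand, which had 24.3 FPKM in control cells against 12.3 FPKM in the knockout. CHEK2 shares 293 bases with HSCB on the opposite strand, ATM 114 bases with C11orf65 on the opposite strand and CHEK1 53 bases with STT3A on the same strand. The values of ATRIP and TP53BP1 are the more uncertain for this reason. CHEK2 also has pseudogene copies, of which CHEK2P2 was listed, with 0.30 FPKM in control cells against 0.07 FPKM in the knockout.

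The rest of the checkpoint pathway was described with a list of 61 further genes, all of which were kept. Of these 24 were higher and 37 lower in FZR1 ko, with a median log2 ratio of -0.16, and 2 were higher and 2 lower by a log2 ratio of at least 1, a smaller share than the 13.5% of all genes kept. The 2 higher were UIMC1, which encodes RAP80, a reader of ubiquitin chains at breaks, at 5.57 FPKM in control cells against 12.2 FPKM in the knockout (log2 ratio 1.001), and HIPK2, a nuclear stress kinase, at a low 0.66 and 2.36 FPKM (1.02). With genes of similar length and GC content subtracted neither passed 1, with UIMC1 at 0.99 and HIPK2 at 0.60, while both lower genes still did. The 2 lower were PKMYT1, a membrane-bound relative of WEE1 that also inhibits CDK1, at 113 FPKM in control cells against 55.7 FPKM in the knockout (-1.01), and CDKN1A, which encodes the CDK inhibitor p21, at 319 and 77.2 FPKM (-2.03).

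The partners of the double-strand break kinases lay on the same side as the kinases. All 3 genes of the MRE11-RAD50-NBN complex were higher in FZR1 ko. MRE11 had 9.27 FPKM in control cells against 14.5 FPKM in the knockout (log2 ratio 0.59), RAD50 had 4.03 and 7.87 FPKM (0.82) and NBN had 10.4 and 14.1 FPKM (0.41). Both Ku subunits, the DNA end binders that hold DNA-PKcs, were higher as well. XRCC6 (Ku70) had 190 FPKM in control cells against 247 FPKM in the knockout (0.38), and XRCC5 (Ku80) had 55.6 and 83.8 FPKM (0.58). PRKDC was higher by more than its partners, so that the ratio of PRKDC to XRCC5 was 0.24 in control and 0.376 in FZR1 ko. With genes of similar length and GC content subtracted, MRE11 was at 0.62, RAD50 at 0.48 and NBN at 0.45, while XRCC6 was at 0.53 and XRCC5 at 0.65, beside 0.91 for PRKDC, a smaller gap than before.

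Among the other PIKK kinases, MTOR, the kinase of growth signalling, had 7.29 FPKM in control cells against 15.3 FPKM in the knockout (log2 ratio 0.98), and TRRAP, a kinase-dead scaffold of acetyltransferase complexes, had 3.72 and 7.33 FPKM (0.82). SMG1, the kinase of nonsense-mediated decay, had 10.3 and 9.46 FPKM (-0.12), so not every gene of the family was higher. With genes of similar length and GC content subtracted, MTOR was at 0.56, TRRAP at 0.25 and SMG1 at -0.46. The 3 genes of the chaperone complex that stabilises these kinases were lower: TELO2 had 44.2 FPKM in control cells against 29.96 FPKM in the knockout (-0.55), TTI1 had 37.3 and 33.3 FPKM (-0.16) and TTI2 had 9.77 and 7.62 FPKM (-0.32, or -0.18 with genes of similar length and GC content subtracted).

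Genes that work with ATR at the fork were mixed. Of 13 genes for the single-strand binding protein RPA, the ring-shaped 9-1-1 clamp, its loader and further ATR activators, 5 were higher and 8 lower, with a median of -0.16, which turned to 0.039, with 7 higher and 6 lower, once genes of similar length and GC content were subtracted. The 3 subunits of the clamp, which presents TOPBP1 to ATR, were all lower. RAD9A had 22.8 FPKM in control cells against 13.0 FPKM in the knockout (-0.76), RAD1 had 63.9 and 49.4 FPKM (-0.36) and HUS1 had 19.1 and 14.99 FPKM (-0.33). Of the fork protection genes, TIMELESS had 37.0 and 50.4 FPKM (0.44) and WDHD1 had 5.95 and 9.15 FPKM (0.55), whereas TIPIN, the partner of TIMELESS, had 16.7 and 12.2 FPKM (-0.42). Of 9 chromatin mediators at breaks, 3 were higher and 6 lower. Among these MDC1, the scaffold on phosphorylated H2AX, had 16.7 and 15.8 FPKM (-0.07), H2AX had 96.4 and 71.1 FPKM (-0.44) and the ubiquitin ligase RNF8 had 9.39 and 7.35 FPKM (-0.32). With genes of similar length and GC content subtracted MDC1 was at -0.28.

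The targets of the checkpoint in the cell cycle were the one large role in which every gene lay on the same side. The role was singled out after its values were seen. At a log2 ratio of 0.5, 5 of the 9 were lower, against 21.0% of all genes kept. That number was 3 with genes of similar length and GC content subtracted. All 9 were lower in FZR1 ko, with a median of -0.52, beside 6812 of the 13554 genes kept. With genes of similar length and GC content subtracted all 9 were still lower, with a median of -0.40. The 3 CDC25 phosphatases, which remove the phosphates that WEE1 and PKMYT1 place, were among them. CDC25A had 48.1 FPKM in control cells against 35.1 FPKM in the knockout (-0.44), CDC25B had 46.97 and 38.0 FPKM (-0.30) and CDC25C had 12.0 and 7.86 FPKM (-0.55). The CDK1-inhibiting kinases WEE1 and PKMYT1 and the CDC25 phosphatases that oppose them were thus all lower in FZR1 ko. CDK1, named here after its value was seen, had 116 and 80.8 FPKM (-0.52), and the ratio of WEE1 to CDK1 was 0.209 in control and 0.173 in FZR1 ko. Beside these values, 14 of 20 G1/S genes and 13 of 20 G2/M genes were lower in FZR1 ko, with medians of -0.20 and -0.16. The G2/M list shares 5 genes with the pathway list, and without them 9 of 15 were lower, with a median of -0.097. The summed level was 2075 and 1696 FPKM for the G1/S genes and 1193 and 974 FPKM for the G2/M genes, in control and FZR1 ko. The part of the cell cycle in the levels of WEE1, CLSPN and CHEK1 was not tested.

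**Figure D2:**
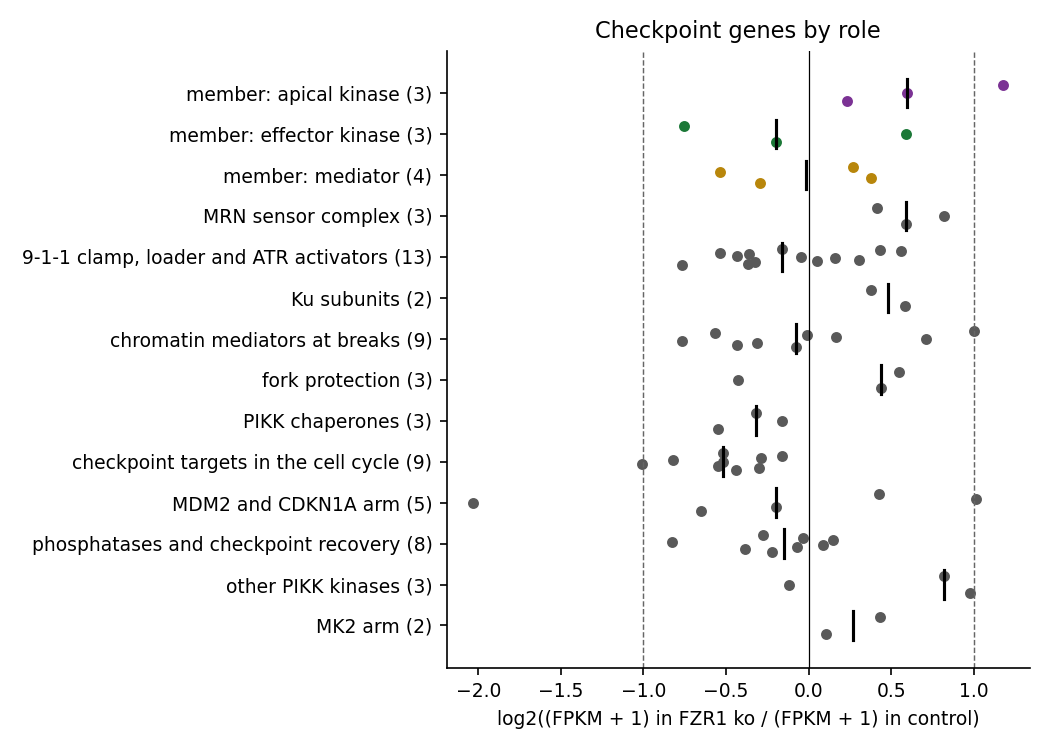
Log2 ratio of FZR1 ko over control for the 10 checkpoint kinases and mediators (coloured) and further genes of the pathway list (grey), 1 point per gene, grouped by role with the number of genes drawn in parentheses, a black bar at the median of each role and dashed lines at -1 and 1. The apical kinases, the MRE11-RAD50-NBN complex and Ku lie to the right of 0, and all 9 targets in the cell cycle lie to the left.

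Of the 6 genes of the role that holds CDKN1A, HIPK2 and MDM2, 3 were higher and 3 lower, with a median of -0.02. With genes of similar length and GC content subtracted 3 were again higher and 3 lower, with a median of -0.13. MDM2, a ubiquitin ligase, had 27.7 FPKM in control cells against 17.3 FPKM in the knockout (-0.65), and its relative MDM4 had 8.13 and 6.97 FPKM (-0.20). Of 8 genes for phosphatases and checkpoint recovery, 2 were higher and 6 lower. PPM1D, the phosphatase WIP1 that acts on ATM, had 9.52 and 8.01 FPKM (-0.22), PPP2CA had 103 and 78.3 FPKM (-0.38) and PPP1CA had 147 and 140 FPKM (-0.07). Of the stress kinase arm that can act beside CHK1, MAPK14 had 13.5 and 18.6 FPKM (0.44) and MAPKAPK2 had 35.02 and 37.7 FPKM (0.10). With genes of similar length and GC content subtracted MDM4 was at -0.54, PPM1D at -0.36, PPP1CA at -0.04 and MAPKAPK2 at 0.25.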

How the data were processed

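Total RNA of control and FZR1 ko T-47D cells, 1 library each, was sequenced on a BGISEQ-500. The submitters' processing notes name Trimmomatic 0.36, HISAT2 2.1.0, Bowtie2 2.2.5, RSEM and hg38, and the methods give another version of Bowtie2. The authors deposited FPKM per Entrez gene ID with 2 decimals. Annotation version, filters and fragment length are not given in the sources used here. Of 24663 rows 1630 had no value, and 22925 of the other 23033 matched a RefSeq symbol. FPKM keeps no counts, so no interval can be given. Log2 ratios used a pseudocount of 1 FPKM, over the 13554 genes of 1 FPKM or more in either library. Canonical GENCODE 44 transcripts gave length and GC content, and the median ratio of 10 by 10 quantile groups was subtracted as an alternative. Other alternatives were pseudocounts of 0.1 and 5 FPKM, no filter, 1 FPKM in both libraries, centring, rescaling to equal sums, and protein-coding genes only. The fold counting was tested on simulated data.

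The 10 genes and the lists were chosen with earlier results of these data known. Named in the text are all 10, FZR1, pathway genes past a log2 ratio of 1, up to 3 others per role in list order (1 of them is not reported here), and neighbours by position. CDK1 and the cell type markers printed stand outside this rule and were named after their values were seen. Python 3.11.15, numpy 2.4.6, pandas 2.3.3 and matplotlib 3.10.9 were used.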

Additional observations from a re-analysis of the deposited data

How the results depend on the processing

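No paired analysis was possible because neither group has a second library, and for the same reason no replicate was left out. Each of the 10 genes was recomputed under 8 alternatives, and 79 of these 80 values kept their sign. The filters, the choice of protein-coding genes and the pseudocounts cannot turn the sign of a gene, so most of the 80 outcomes were fixed in advance. Rescaling and centring moved each value only a little. The exception was TP53BP1, at 0.27, which was at -0.0041 once the median of genes of similar length and GC content was subtracted (trend removed). That setting and a pseudocount of 5 FPKM were the only ones to move a gene by more than 0.1. The number of genes past a log2 ratio of 1 among the 10 was 0 in place of 1 under both, with PRKDC at 0.91 and 0.99. At a log2 ratio of 0.5, 2 genes in place of 5 passed with the pseudocount of 5 FPKM. The median of the 10 genes, 0.25, was 0.047 with the trend removed. Over all genes, 2818 in place of 1830 passed a log2 ratio of 1 with a pseudocount of 0.1 FPKM and 453 with one of 5 FPKM, and 3164 in place of 5780 passed 0.5 with the latter. A larger pseudocount passes fewer genes by its construction. CHEK2 ranged from 0.46 to 0.64 and WEE1 from -0.79 to -0.63 over all settings. The number of reads behind each value is unknown. As FPKM is scaled to transcript length, the genes with the lowest FPKM, ATM and ATR, need not have the fewest reads. CHEK2, with 1844 bases, has the shortest transcript of the 10 genes.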

Other observations

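ATM, CHEK2 and PRKDC each share a promoter region with a gene read the other way, with starts at most 1000 bases apart in GENCODE 44, and in none of the 3 pairs did the partner have a log2 ratio as high. These pairs were looked up after the values were seen. PRKDC stands 805 bases from MCM4, a subunit of the replicative helicase, which had 71.0 FPKM in control cells against 75.1 FPKM in the knockout (log2 ratio 0.08), beside 1.18 for PRKDC. CHEK2 stands 219 bases from HSCB, a co-chaperone of iron-sulfur cluster assembly, which had 18.7 FPKM in control cells against 11.4 FPKM in the knockout (-0.67), beside 0.59 for CHEK2. Their annotated exons overlap, so reads of this pair may be shared. ATM stands 429 bases from NPAT, the coactivator of replication-dependent histone genes, which had 9.56 FPKM in control cells against 8.47 FPKM in the knockout (-0.16), beside 0.23 for ATM. No test was made of these differences, which rest on 1 library per condition.

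One of the 2 ATM windows of the RefSeq table lies on the plus strand at chr11:108222817-108223116. It is shown because it overlaps the window of NPAT, and the 72 bases that both windows hold, from 108222817 to 108222888, are in capitals.
ATM: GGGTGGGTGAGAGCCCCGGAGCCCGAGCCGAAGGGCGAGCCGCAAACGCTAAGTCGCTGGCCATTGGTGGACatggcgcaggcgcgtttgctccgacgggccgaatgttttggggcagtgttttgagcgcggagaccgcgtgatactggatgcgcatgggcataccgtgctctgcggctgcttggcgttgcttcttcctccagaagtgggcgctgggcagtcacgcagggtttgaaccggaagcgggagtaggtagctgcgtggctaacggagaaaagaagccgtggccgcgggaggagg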
